A study of Mus musculus with 6 samples.

Results

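A set of 10 chaperone genes that handle misfolded proteins (Hspa1a, Hspa1b, Hspa8, Hspb1, Hspb8, Bag3, Cryab, Dnajb1, Hsph1 and Hspa5) was examined in the ventral spinal cord of a mouse model of amyotrophic lateral sclerosis. They were taken by symbol, and all 10 were found among the 28162 genes of the deposited table and passed the filter on low values. The tissue was lumbar spinal cord, its ventral portion, from mice carrying SOD1G93A, a mutant form of the antioxidant enzyme superoxide dismutase 1 that misfolds and aggregates. At postnatal day 74 the mice were injected intrathecally with AAV, a gene-delivery virus, carrying either NDNF (neuron-derived neurotrophic factor, 3 libraries) or GFP (green fluorescent protein, 3 libraries), and tissue was taken at day 104. Both groups carried the SOD1G93A transgene and both received a virus, so the comparison is between the delivered genes and includes no animal without the transgene or without a virus. The labels give no sex, strain background, viral serotype or promoter. The libraries are labelled as biological replicates, and where they do not come from separate animals the p-values measure only the spread between these samples.

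Hsp70 chaperones bind exposed hydrophobic stretches of unfolded proteins and release them in cycles of ATP hydrolysis. J-domain proteins such as Dnajb1 deliver the client and start the cycle, and nucleotide exchange factors such as Hsph1 and Bag3 end it. Small heat shock proteins (Hspb1, Hspb8, Cryab) hold unfolded clients without using ATP, Bag3 with Hspb8 passes them on to autophagy, and Hspa5 does the work of Hsp70 inside the endoplasmic reticulum. Cytosolic members are induced by heat shock factor 1, and motor neurons are known for a weak heat shock response.

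The reads assigned to genes came to between 15335789 and 20060987 per library. A principal component analysis of all tested genes set apart AAV-GFP replicate 2 and AAV-NDNF replicate 3, at opposite ends of its first component. All 7 motor neuron markers examined were detected, with summed normalized counts of 6148 to 7468 per library, whereas the summed counts of 5 skeletal muscle markers, a tissue rich in small heat shock proteins, were 25.9 to 49.3. Ndnf, the delivered gene, was 171, 128 and 158 normalized counts in the AAV-GFP libraries and 5286, 7077 and 674 in the AAV-NDNF libraries, with AAV-NDNF replicate 3 lowest of the treated group.

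The sequences upstream of the inducible genes are shown for units of the binding motif of heat shock factor 1 and for how alike Hspa1a and Hspa1b are. RefSeq promoter windows (GRCm38.p6) were found for 8 of the 10 genes, the exceptions being Hspa8 and Cryab. The 250 bases upstream of the start were searched on both strands for a pair of heat shock units in opposite orientation. The pair is written GAANNTTC (head to head) or TTCNNGAA (tail to tail). These forms can overlap each other, and each reads the same on both strands. Of the 8 genes, 4 (Hspa1a, Hspa1b, Hspb1 and Hsph1) held such a pair, where 12.8% of all 32851 windows of that length do. Hspa1a, Hspa1b and Hspb1 are shown over the 150 bases before the start, 5′ to 3′ on the coding strand, with the pairs in capitals.
Hspa1a (chr17:34972157-34972306, minus strand): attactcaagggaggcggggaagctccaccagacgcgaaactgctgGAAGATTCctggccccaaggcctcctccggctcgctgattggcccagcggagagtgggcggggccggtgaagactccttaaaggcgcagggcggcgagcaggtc
Hspa1b (chr17:34959239-34959388, minus strand): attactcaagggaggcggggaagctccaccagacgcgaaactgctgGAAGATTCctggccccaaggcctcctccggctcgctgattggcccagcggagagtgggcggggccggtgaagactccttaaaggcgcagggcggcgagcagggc
Hspb1 (chr5:135887769-135887918, plus strand): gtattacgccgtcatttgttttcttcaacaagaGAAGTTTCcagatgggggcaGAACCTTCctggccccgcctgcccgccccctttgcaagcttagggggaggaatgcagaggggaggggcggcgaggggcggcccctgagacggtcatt
The windows of Hspa1a and Hspa1b were identical at 149 of 150 bases (99.3%), each with its pair beginning 104 bases before the start, and Hspb1 had 2 pairs, at 117 and 97 bases. Upstream of Hspa5 no such pair was found. Its window held instead the endoplasmic reticulum stress element (ERSE), shown whole in capitals, which is present in 0.113% of windows. The element begins 65 bases before the RefSeq start (chr2:34772025-34772043, plus strand). GENCODE M21, used for the gene positions below, starts Hspa5 further upstream, at 34771970, so the element lies inside that gene span.
Hspa5 element: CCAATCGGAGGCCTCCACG

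Per length, the constitutive cytosolic Hsp70 was by far the most abundant of the 10 transcripts. Levels per length are normalized read counts per kilobase of annotated exon, which put Hspa8 at 7053 ± 484 (SD over 6 libraries), Cryab at 3239 ± 562 and Hspb1 at 1608 ± 399. By this measure the order held in each of the 6 libraries, and the ranges of neighbouring genes did not overlap. Hspa5 (818 ± 122), Hspb8 (760 ± 123) and Hsph1 (670 ± 55.0) followed with overlapping ranges, so their order is not separated by the spread between libraries. The place of Hsph1 also depends on the length used, since it has 7266 bases of annotated exon and a longest coding transcript of 3802 bases. Levels per transcript length were not computed. Much of the sequence of Hspa8, Hspb1, Hspa1a and Hspa1b also occurs in other genes, as given below. How reads from such sequence were counted is not known, so the levels and places of these genes are uncertain as well. Bag3 (366 ± 39.5) and Dnajb1 (263 ± 37.8) were each separated from their neighbours. The stress-inducible pair was lowest, Hspa1a at 31.3 ± 6.18 and Hspa1b at 23.1 ± 8.49 per kilobase, with overlapping ranges. Together the 10 genes took 0.266% to 0.317% of all assigned reads, most of them Hspa8 with 0.165% to 0.195%.

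**Figure D1:**
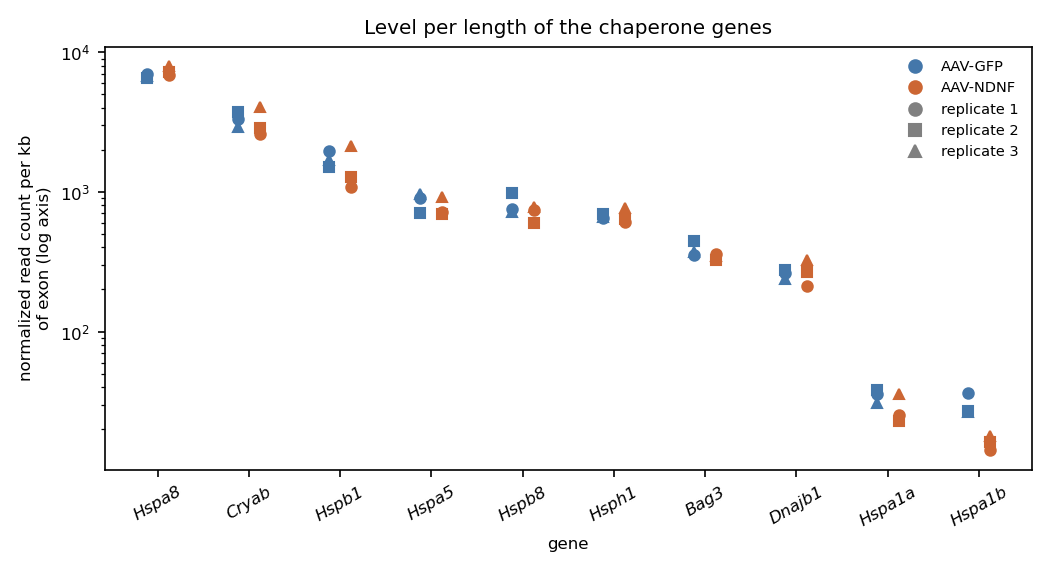
Normalized read count per kilobase of annotated exon (log axis) for the 10 chaperone genes, with 1 point per library, coloured by group and shaped by replicate. Hspa8 lies highest at a mean of 7053 and Hspa1b lowest at 23.1.

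The question of the comparison was whether chaperone transcripts in the SOD1G93A cord differed with the delivered gene. No chaperone gene passed the test over all genes. Hspa1b stood lower after AAV-NDNF in every library, 7 of the 10 genes had lower mean log2 values after AAV-NDNF, and the remaining 3 differed by at most 0.11 on the log2 scale. The test was limma on log2(normalized count + 1) over 17480 genes, with Benjamini-Hochberg adjustment and a threshold of 0.05. It called 0 of the 10, where it called 0% of all genes, and the smallest adjusted p among the 10 was 0.702. The delivered gene Ndnf was not called by this fit either (log2 difference 4.27, limma unadjusted p = 0.0019, adjusted p = 0.530). The authors' deposited DESeq2 table gives Ndnf an adjusted p of 8.92e-05. A lack of calls in the limma fit therefore does not show that the chaperone genes were unchanged. At an unadjusted p under 0.05 there was 1 of 10 (Hspa1b), where 4.68% of all genes were, and 3.53% were so and lower after AAV-NDNF. The groups did not overlap at 1 of 10 genes, again Hspa1b, against 9.75% of all genes and 5.5% with every AAV-NDNF library lower. A single gene is the smallest count above 0 that 10 genes can give, so nothing is read from these shares. DESeq2 run on recovered reads also called 0 of the 10, where it called 0.315% of all genes, and the authors' deposited table calls 0 of the 10, where it calls 0.266%. The share with a difference below 0, 7 of 10, compares with 49.9% of all genes. The median log2 difference of the 10 genes was −0.16, where that of all genes was 0.00083. With 1 library left out, the median of the 10 ranged from −0.27 (without AAV-NDNF replicate 3) to −0.073 (without AAV-GFP replicate 2), and it was −0.076 when AAV-NDNF replicate 1 was omitted. In bulk tissue, fewer cells of a type and less RNA per cell cannot be told apart.

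**Figure D2:**
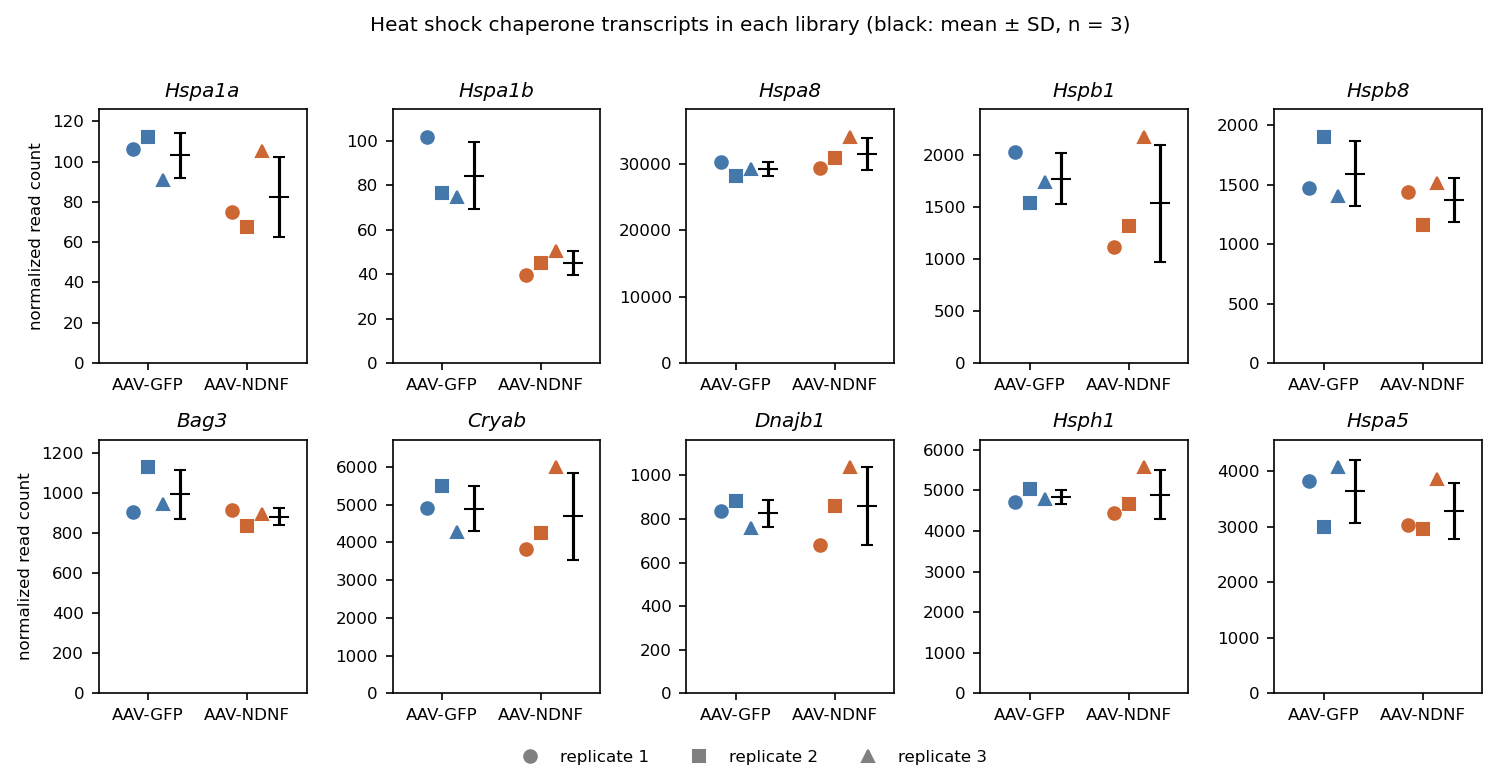
Normalized read count (linear axis from 0) of each chaperone gene in the 3 AAV-GFP and 3 AAV-NDNF libraries, shaped by replicate, with the mean ± SD of each group in black. The groups separate at Hspa1b (74.8 to 102 against 39.5 to 50.4) and overlap at the other 9 genes.

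Hspa1a and Hspa1b encode the stress-inducible cytosolic Hsp70 and lie in tandem on chromosome 17 of mm10, Hspa1b at 34956436 to 34959238 and Hspa1a at 34969190 to 34972156, both on the minus strand. Hspa1b was 102, 76.2 and 74.8 normalized counts in the AAV-GFP libraries and 39.5, 45.0 and 50.4 in the AAV-NDNF libraries. Each treated library thus lay below each control, and the group means stood at 0.534 of the control level. The log2 difference was −0.88 (SE 0.26, 95% interval −1.46 to −0.31; limma unadjusted p = 0.00619, adjusted p = 0.702). An exact two-sided permutation test of the same difference gave p = 0.1, the smallest that 3 against 3 libraries allow. For Hspa1b the log2 fold change in the authors' deposited table is −0.91, at a DESeq2 p of 0.00613 and an adjusted p of 0.519.

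Hspa1a was 106, 112 and 90.8 in the AAV-GFP libraries and 74.9, 67.6 and 105 in the AAV-NDNF libraries. Replicates 1 and 2 of the treated group were below every control, while replicate 3 lay within the control range. The log2 difference of −0.34 (SE 0.24, 95% interval −0.87 to 0.19) had an unadjusted limma p of 0.189. It ranged from −0.52 (without AAV-NDNF replicate 3) to −0.21 (without AAV-NDNF replicate 2). Reads of these genes are uncertain in their assignment. Of the 100-base stretches of the Hspa1b transcript in GENCODE M21, 49.9% also occur in Hspa1a, and 56.5% of those of Hspa1a occur in some other gene. Hspa1a also overlaps Gm20481 on the opposite strand. How reads that match both were counted is not given in the sources used here. The recovered reads behind the values were 40 to 114 per library for Hspa1b and 60 to 119 for Hspa1a.

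As the sum of Hspa1a and Hspa1b does not depend on how reads were split between them, it was tested as well. It does depend on whether reads matching both were counted at all, which is not given. The sum was 208, 189 and 166 in the AAV-GFP libraries and 114, 113 and 156 in the AAV-NDNF libraries. The groups stayed apart, though the gap between the lowest control and AAV-NDNF replicate 3 was small. The log2 difference of the sum was −0.56 (SE 0.20; limma unadjusted p = 0.0167, adjusted p = 0.915). The ratio of Hspa1b to Hspa1a was 0.958, 0.678 and 0.824 in the AAV-GFP libraries and 0.528, 0.667 and 0.479 in the AAV-NDNF libraries. These ratios did not overlap either, by a narrow margin between AAV-GFP replicate 2 and AAV-NDNF replicate 2 (exact permutation p = 0.1).

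Hspa8, the constitutive Hsc70 that also uncoats clathrin vesicles (chromosome 9, 40800984 to 40810087, plus strand), had the tightest values of the 10. It was 30229, 28113 and 29252 normalized counts in the AAV-GFP libraries and 29365, 30952 and 34107 in the AAV-NDNF libraries. The groups overlapped, with AAV-NDNF replicate 3 highest. The log2 difference was 0.11 (95% interval −0.13 to 0.34), so a fold between 0.914 and 1.27 lies within the interval. It ranged from 0.047 (without AAV-NDNF replicate 3) to 0.15 (without AAV-NDNF replicate 1). Of its 100-base stretches, 63.4% occur in other genes, mostly the processed copy Gm15459 (58.5%), which makes the level of Hspa8 itself uncertain.

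Hsph1 (Hsp110) and Dnajb1 (Hsp40) complete the cytosolic disaggregation machinery. Hsph1 (chromosome 5, 149614287 to 149636376, minus strand) was 4713, 5041 and 4785 in the AAV-GFP libraries and 4439, 4654 and 5580 in the AAV-NDNF libraries. Treated libraries lay on both sides of the controls, and the log2 difference was 0.0067 (95% interval −0.25 to 0.26). Dnajb1 (chromosome 8, 83608193 to 83612653, plus strand) was 835, 882 and 757 in the AAV-GFP libraries and 682, 857 and 1038 in the AAV-NDNF libraries. Its treated libraries again spanned the control range on both sides, with replicate 1 lowest and replicate 3 highest of all 6. The log2 difference of Dnajb1 was 0.041 (95% interval −0.30 to 0.38). The directions of Hsph1 and Dnajb1 were not fixed, since each turned below 0 without AAV-NDNF replicate 3 (−0.092 and −0.11) and was further above 0 without AAV-NDNF replicate 1 (0.073 and 0.20).

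Of Hspb1, Hspb8 and Cryab, the small heat shock proteins among the 10, Hspb1 varied most. Hspb1 (Hsp25 in mouse; chromosome 5, 135887919 to 135889563, plus strand), which protects actin and neurofilaments and is a gene of inherited motor neuropathy, was 2036, 1546 and 1747 in the AAV-GFP libraries. In the AAV-NDNF libraries it was 1118, 1318 and 2182. Replicates 1 and 2 of the treated group were the lowest of all 6 libraries and replicate 3 was the highest. The log2 difference was −0.26 (SE 0.21, 95% interval −0.72 to 0.21; limma unadjusted p = 0.249). It rested on single libraries, at −0.54 without AAV-NDNF replicate 3 (limma unadjusted p = 0.00139, adjusted p = 0.277) and −0.058 without AAV-NDNF replicate 1 (limma unadjusted p = 0.778). Hspb1 is uncertain too, since 42.7% of its 100-base stretches occur in the copy Hsp25-ps1.

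Cryab (alpha-B crystallin; chromosome 9, 50751325 to 50756636, plus strand), a small heat shock protein abundant in oligodendrocytes and reactive astrocytes, had the same arrangement of treated libraries. It was 4918, 5481 and 4286 in the AAV-GFP libraries and 3819, 4241 and 5998 in the AAV-NDNF libraries. Replicates 1 and 2 of the treated group were again lowest and replicate 3 highest. The log2 difference was −0.083 (95% interval −0.45 to 0.28), and −0.28 without AAV-NDNF replicate 3 (limma unadjusted p = 0.0354, adjusted p = 0.730). It was 0.050 without AAV-NDNF replicate 1. The annotation of Cryab overlaps that of its neighbour Hspb2 on the opposite strand, and 15.0% of its 100-base stretches are shared with it. Since the strand setting of the counting is not given, reads in the overlap cannot be assigned with certainty. Hspb2 itself stood at 6.76 to 18.2 normalized counts.

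Hspb8 and Bag3, the pair that hands clients to autophagy, had lower means after AAV-NDNF, within the spread between libraries. Hspb8 (chromosome 5, 116408491 to 116422864, minus strand) was 1475, 1904 and 1401 in the AAV-GFP libraries and 1435, 1165 and 1513 in the AAV-NDNF libraries. Bag3 (chromosome 7, 128523616 to 128546981, plus strand) was 905, 1131 and 943 in the AAV-GFP libraries and 917, 836 and 894 in the AAV-NDNF libraries. For both genes AAV-GFP replicate 2 was the highest library and AAV-NDNF replicate 2 the lowest, and the groups overlapped. The log2 differences were −0.21 for Hspb8 (95% interval −0.53 to 0.11) and −0.16 for Bag3 (95% interval −0.43 to 0.10). With 1 library left out, Hspb8 ranged from −0.30 (without AAV-GFP replicate 3) to −0.078 (without AAV-GFP replicate 2). Bag3 ranged from −0.23 (without AAV-GFP replicate 1) to −0.068 (without AAV-GFP replicate 2). That library was also highest in the summed oligodendrocyte markers (699140 normalized counts, where the other 5 libraries had 504977 to 563952). It was lowest in the summed general neuron markers (47580, against 53483 to 68362). Among those markers it was lowest at Snap25, Syt1 (417, against 1222 to 1834), Rbfox3 and Stmn2, but not at Tubb3 (8454, against 7763 to 10082). The mean log2 deviation of the dorsal horn neuron markers was also lowest there (−1.70, against −0.029 to 0.86). Their summed counts did not set that library apart (3468, against 3349 to 4425), and its motor neuron marker sum was the highest (7468, against 6148 to 7364). The part of these cells in the Hspb8 and Bag3 values was not tested.

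Hspa5 (BiP, GRP78; chromosome 2, 34771970 to 34777547, plus strand) is the Hsp70 of the endoplasmic reticulum and keeps the sensors of the unfolded protein response inactive. It was 3833, 3004 and 4079 in the AAV-GFP libraries and 3029, 2959 and 3863 in the AAV-NDNF libraries. The groups overlapped, AAV-GFP replicate 2 lying between the lower treated libraries. The log2 difference was −0.15 (SE 0.15, 95% interval −0.47 to 0.18; limma unadjusted p = 0.339). With 1 library left out it ranged from −0.28 (without AAV-GFP replicate 2) to −0.058 (without AAV-GFP replicate 3).

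**Figure D3:**
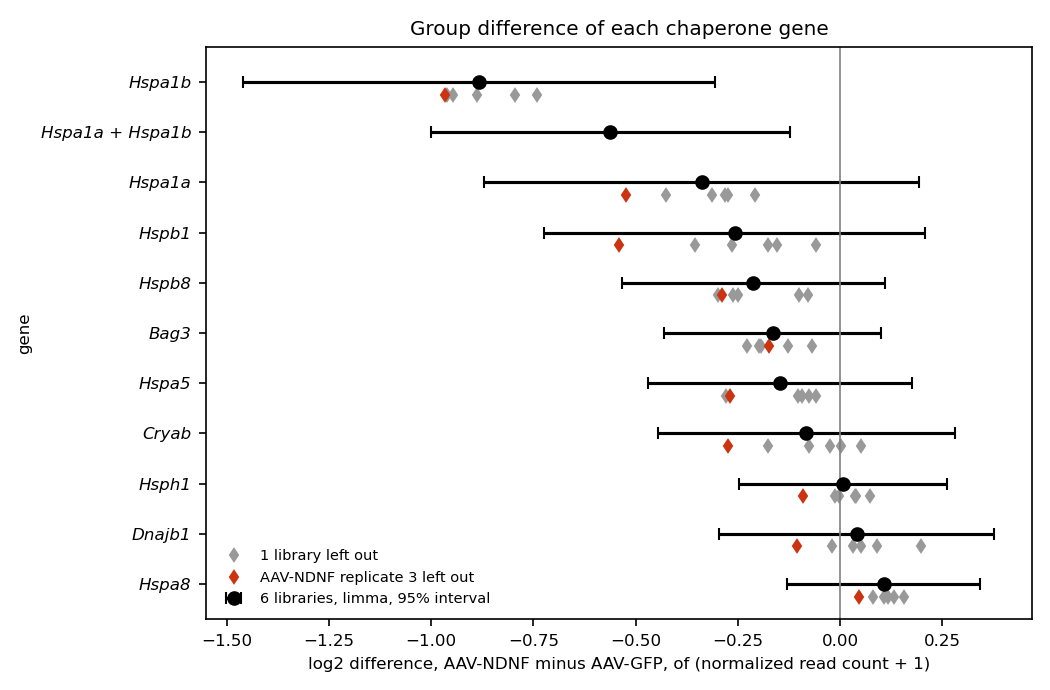
Log2 difference (AAV-NDNF minus AAV-GFP) of each chaperone gene and of the sum of Hspa1a and Hspa1b, as a black point with its 95% limma interval. Diamonds give the difference with 1 library left out, in red for AAV-NDNF replicate 3. The intervals of Hspa1b and of the sum lie below 0 before adjustment, and those of the other 9 genes include 0.

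Within the treated group the libraries differed. AAV-NDNF replicate 3 held the highest value of 5 of the 10 genes (Hspa8, Hspb1, Cryab, Dnajb1 and Hsph1), where it was highest at 26.4% of all tested genes, and the lowest value of 0 of 10, against 26.3%. AAV-NDNF replicate 1 held the lowest value of 5 (Hspa1b, Hspb1, Cryab, Dnajb1 and Hsph1), against 17.7% of all tested genes, and replicate 2 the lowest of 4 (Hspa1a, Hspb8, Bag3 and Hspa5), against 13.3%. Among the controls, AAV-GFP replicate 2 was highest at 3 of 10 (Hspa1a, Hspb8 and Bag3), against 20.8%. Averaged over the 10 genes, the log2 deviation from the gene mean was −0.24, −0.20 and 0.15 in AAV-NDNF replicates 1 to 3 and 0.14, 0.12 and 0.024 in AAV-GFP replicates 1 to 3. Without AAV-NDNF replicate 3, which also had the fewest Ndnf reads of its group, 3 of 10 genes (Hspa1b, Hspb1 and Cryab) had an unadjusted p under 0.05, where 6.58% of all genes did, and 0 of 10 passed after adjustment (0.0629% of all genes). Limma-voom with quality weights put 5 of 10 under an unadjusted 0.05 (Hspa1a, Hspa1b, Hspb1, Hspb8 and Hspa5), where it put 13.9% of all genes, and again called 0 of 10 (0.955% of all genes).

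**Figure D4:**
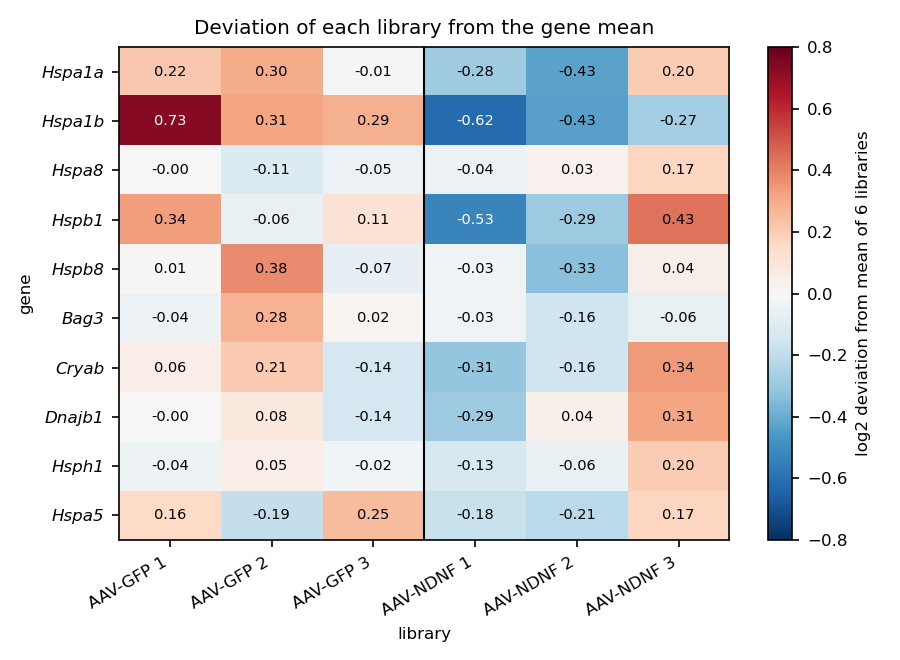
Log2 deviation of each library (columns) from the mean of the 6 libraries for each chaperone gene (rows), red above and blue below the mean. Hspa1b is above its mean in all 3 AAV-GFP libraries and below it in all 3 AAV-NDNF libraries, while AAV-NDNF replicate 3 is above the mean at 8 of 10 genes.

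The genes whose pattern over the 6 libraries was most like the 3 most variable chaperones were sought by the root mean square difference of the centred log2 values. Nearest to Hspb1 were Rps23 (0.0452) and Rplp2 (0.0528), both ribosomal protein genes, and Fam162a (0.0558). Rps23 was 2284, 1725 and 1981 normalized counts in the AAV-GFP libraries and 1309, 1609 and 2473 in the AAV-NDNF libraries. That is the same order of libraries as Hspb1, the likeness for which it was chosen. A list of 80 ribosomal protein genes, added after these values were seen, had its highest value in AAV-NDNF replicate 3 at 77 genes and its lowest in AAV-NDNF replicate 1 at 73. Its median log2 deviation was −0.42, −0.094 and 0.41 in AAV-NDNF replicates 1 to 3 and 0.16, −0.16 and 0.10 in the controls. The part of this library pattern in the Hspb1 values was not tested.

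Closest to Hspa1b were Lyl1 (0.112), a transcription factor of blood and endothelial cells, the lactate transporter Slc16a3 (0.115) and A930015D03Rik (0.120). Every treated library lay below every control at each of them, as at 5.5% of all genes. These genes were chosen for likeness to Hspa1b over the same libraries, so the shared separation follows from the choice. Closest to Hspa1a were Gask1b (0.0644), Limd2 (0.0753) and Prss23 (0.0774). By the same choice they had AAV-NDNF replicate 3 within the control range, like Hspa1a.

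Markers of other cell types were read beside the chaperones, and 0 of them passed after adjustment in the limma fit. The 5 microglial markers used all had lower means after AAV-NDNF, 2 of them at an unadjusted p under 0.05 (all genes, 4.68%), and their summed level was 7833 to 8249 normalized counts in the controls and 5930 to 6261 after AAV-NDNF (Csf1r most abundant). All 6 reactive astrocyte markers had lower means as well, 4 of them at an unadjusted p under 0.05, with sums of 111188 to 141289 against 83924 to 100089. Most of these sums was Gfap alone (98168 to 128814 against 75104 to 89726). Every AAV-NDNF library was lower at 3 of the 6 markers, as at 5.5% of all genes. None of these markers was at 0 in any library. Of 5 mural cell markers 4 were higher, with sums of 4306 to 4513 against 4679 to 5613. All 6 general astrocyte markers had lower means (median −0.11) and all 5 general neuron markers higher means (median 0.23), with 0 of these 11 at an unadjusted p under 0.05 and overlapping sums. Motor neuron marker sums overlapped (6148 to 7468 against 6385 to 7364). The part of these cells in the Hspa1b and Hspa1a values was not tested. Immediate early genes, like Hspa1a and Hspa1b, respond within minutes to handling of tissue. Over 12 of these genes the median log2 difference was −0.052, with 8 of 12 lower and 0 of 12 at an unadjusted p under 0.05. Their most abundant members, Jun (1466, 1475 and 1496 against 1433, 1480 and 1324) and Egr1 (594, 389 and 655 against 742, 547 and 416), overlapped between the groups. The part of tissue handling in the Hspa1b and Hspa1a values was not tested.

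The wider chaperone network was described by counts of its tested genes, and no list gene was called over all genes. The medians of the lists ran on both sides of 0. Genes are named from each list for its smallest p-values. Over all tested genes, the groups did not overlap at 9.75%, and every AAV-NDNF library was lower at 5.5%. In the list of heat shock factors and Hsp90 machinery, 12 of 14 genes had differences above 0 (median 0.13). Only 1 of 14 was below an unadjusted p of 0.05, where 4.68% of all genes were, and that gene was lower. Fkbp5, an Hsp90 cochaperone of steroid receptors that glucocorticoids induce, was 999, 569 and 982 in the AAV-GFP libraries and 495, 430 and 548 in the AAV-NDNF libraries. Each treated library was below each control, by a narrow margin over AAV-GFP replicate 2, with a log2 difference of −0.75 (SE 0.20; limma unadjusted p = 0.00345, adjusted p = 0.549). The authors' deposited table gives Fkbp5 an adjusted p of 0.0553. Stip1, which joins Hsp70 to Hsp90, was 4582, 4632 and 4583 against 4604, 5507 and 5909 (log2 difference 0.21, limma unadjusted p = 0.103).

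Relatives of Hsp70 and Hsp110 with their exchange factors had 13 of 16 differences above 0 (median 0.068, with 1 library left out 0.034 to 0.11, lowest without AAV-NDNF replicate 3 and highest without AAV-GFP replicate 3) and 0 at an unadjusted p under 0.05. The exchange factors Bag4 and Bag5 led the list, at log2 differences of 0.24 and 0.27. J-domain cochaperones had 10 of 13 above 0 (median 0.11; 0.062 without AAV-NDNF replicate 3 and 0.17 without AAV-NDNF replicate 1), led by Dnajc6 (auxilin, which brings Hspa8 to clathrin coats), at 2722, 2527 and 2764 against 3062, 3022 and 2965, where every treated library was above every control (log2 difference 0.18, limma unadjusted p = 0.109). The chaperonin TRiC, the folding chamber of actin and tubulin, had 7 of 8 subunits above 0 (median 0.080), with Cct6a at 0.21 and Cct8 at 0.11. All 8 subunits had their highest value in AAV-NDNF replicate 3, as did 11 of 14 genes of the Hsp90 list. With 1 library left out, the TRiC median ranged from −0.030 (without AAV-NDNF replicate 3) to 0.21 (without AAV-NDNF replicate 1). The Hsp90 list median ranged from −0.0061 to 0.23 at the same omissions.

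In the endoplasmic reticulum, 17 of 20 chaperone and unfolded protein response genes had differences below 0, with a median of −0.14, the same sign as Hspa5. That median ranged from −0.20 (without AAV-NDNF replicate 3) to −0.092 (without AAV-NDNF replicate 2). Only 1 of 20 was below an unadjusted p of 0.05, where 4.68% of all genes were. That gene was Dnajc3 (p58IPK, the J-domain partner of Hspa5 and inhibitor of the kinase PERK). Dnajc3 was 1695, 1786 and 1741 in the AAV-GFP libraries and 1390, 1407 and 1460 in the AAV-NDNF libraries. The spread within each group was small beside the gap between them, at a log2 difference of −0.29 (SE 0.10; limma unadjusted p = 0.0139, adjusted p = 0.875). Creld2, a secreted target of the same response, was 245, 177 and 209 against 146, 153 and 202 (log2 difference −0.33), and the groups overlapped.

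Mitochondrial chaperones had 6 of 9 differences above 0 (median 0.019, ranging from −0.080 without AAV-NDNF replicate 3 to 0.092 without AAV-NDNF replicate 1). Hspa9 (mortalin), the mitochondrial Hsp70, was 4092, 3981 and 4193 against 4199, 4963 and 5126, and Clpb, a disaggregase, was 863, 999 and 941 against 910, 845 and 823. Every treated library was above every control at Hspa9, narrowly for replicate 1 (log2 difference 0.21, limma unadjusted p = 0.0812). Partners in aggregate clearance had 6 of 10 above 0 (median 0.056). Among them Ubqln2, a ubiquitin shuttle and familial ALS gene, was at a log2 difference of 0.18 and Synpo2, a partner of Bag3, at −0.28, neither at an unadjusted p under 0.05. Of the other small heat shock proteins, 4 of 6 were under 10 normalized counts in every library and were not tested. Hspb6 was 526, 432 and 436 against 363, 419 and 429 (log2 difference −0.20, limma unadjusted p = 0.184), the treated libraries lying just below the controls.

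**Figure D5:**
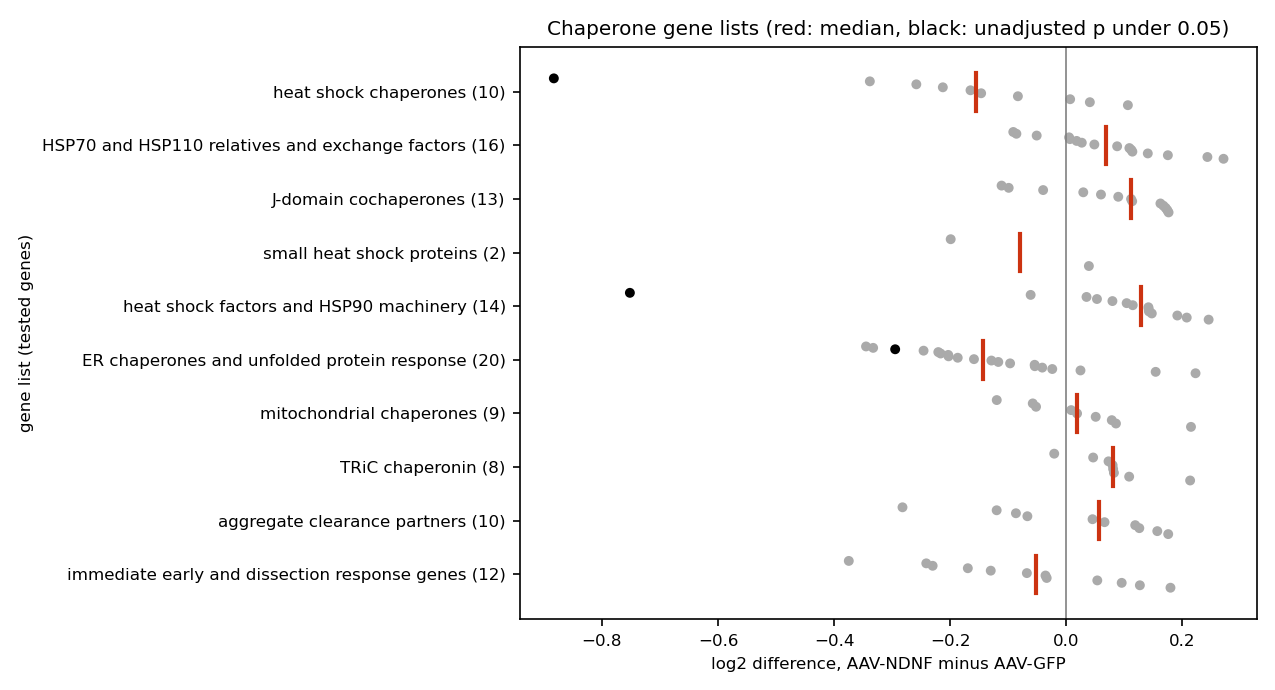
Log2 difference (AAV-NDNF minus AAV-GFP) of every tested gene in each chaperone list and in the immediate early list, with the list median in red and genes at an unadjusted p under 0.05 in black. Medians run from −0.16 for the heat shock chaperones to 0.13 for the Hsp90 list.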

How the data were processed

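Polyadenylated RNA from TRIzol extracts was sequenced on an Illumina instrument, per the labels' protocols. Tools named in the submitters' processing notes are cutadapt, HISAT2, HTSeq and DESeq2, with mm10 as the build. Their versions, the annotation and the strand setting are not given in the sources used here. The deposited table holds, per its file headers, a normalized signal per library, which the authors made by dividing gene read counts by 1 size factor per library (100% of values were whole multiples of 1 read, tolerance 0.001). The authors also deposited log2 fold changes, Wald scores and p-values from DESeq2.

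The main fit was limma 3.58.1 (R 4.3.3; mean-variance trend, robust variances, two-sided) on log2(normalized count + 1) of all 6 libraries, over the 17480 genes that reached 10 normalized counts in 3 or more libraries. Fold changes of low genes are understated on this scale. Alternatives used edgeR 4.0.16 and DESeq2 1.42.0 on recovered reads, limma-voom with quality weights, other scalings, filters and pseudocounts, a replicate block and leaving out each library. The fits were also run on simulated counts, and nothing here draws on the outcome of that run. Lists are described by counts and medians, with no set test.

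The 10 genes and the lists were chosen with earlier results of these data known. Named genes are the 10, Ndnf, the 2 smallest p-values of each chaperone list, the 2 most abundant immediate early genes, and the 3 nearest genes of each of the 3 most variable chaperones. Others were chosen after their values were seen. Every pair of libraries differed by more than counting noise. Gene positions, exon lengths and transcripts came from GENCODE M21 (mm10) and promoters from RefSeq. A microglial marker of the planned list is not reported here and was left out of its counts and sums.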

Additional observations from a re-analysis of the deposited data

How the results depend on the processing

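For the 10 chaperone genes, all 16 alternatives called 0 genes, and Hspa1b kept its direction in each of them (log2 difference −1.01 to −0.74, unadjusted p up to 0.0406, smallest adjusted p 0.0831). Over all genes, limma called 0 (818 at an unadjusted p under 0.05) and edgeR 0 (804). The number called was 3 with no filter on low values, 55 with DESeq2 and 167 with limma-voom and quality weights. With 1 library left out it was 0 to 43, the highest without AAV-GFP replicate 2. At an unadjusted p under 0.05 there were 1242 genes with no filter and 2424 with limma-voom, and 544 to 1535 with 1 library left out. Of the 10 genes, 5 were under it with limma-voom and 1 to 3 with 1 library left out. Hsph1 turned to −0.022 with limma-voom. With 1 library left out, Hspb1 ranged from −0.54 to −0.058, Hspa5 from −0.28 to −0.058, the median of the 10 from −0.27 to −0.073, Hsph1 from −0.092 to 0.073, Dnajb1 from −0.11 to 0.20 and Cryab from −0.28 to 0.050. The cause was not tested. The median of the aggregate clearance list was 0.034 with limma-voom and 0.020 to 0.084 with 1 library left out, and that of the immediate early list −0.14 to −0.043.

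A replicate block called 6 genes, 0 of them among the 10 (Hspa1b −0.88, unadjusted p = 0.0116). The replicate numbers are not stated to pair animals. Deviations of same-numbered libraries from their group means had correlations of −0.090, 0.048 and 0.080 across genes. The highest correlation was between AAV-GFP replicate 2 and AAV-NDNF replicate 1 (0.125), followed by AAV-GFP replicate 1 with AAV-NDNF replicate 3 (0.119). With 3 libraries per group the deviations offset each other, so these values cannot decide whether the numbers pair the samples. Depth limits Hspa1a and Hspa1b most, at 40 to 119 reads per library.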
